A study of Mus musculus with 7 samples.

Results

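Long noncoding transcripts that were called dependent on *Tbx5* and that a deposited list marks as unannotated and unidirectional were examined in the mouse left atrium. They were chosen by 3 values in that list of 1489 *Tbx5*-dependent noncoding RNAs (ncRNAs), whose loci the authors had selected on their measured difference between knockout and control. The 3 values were no overlapping gene in its annotation column, no mark for transcription from both strands, and a length of at least 500 bp on mm10. In all, 264 of the 1489 loci (17.7%) met the rule, out of 990 that were unannotated and unidirectional. The other 726 of those were short, 297 listed loci were bidirectional and 202 were annotated.

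The list came from left atria of adult males aged 6 to 8 weeks and of mixed genetic background, with 3 control libraries and 4 *Tbx5* knockout libraries. The control animals were *R26CreERt2* and the knockout animals were *Tbx5* fl/fl;*R26CreERt2*, labelled TBX5 -/-. Both groups carried the tamoxifen-inducible Cre, and tissue was collected a week after tamoxifen had induced the excision of *Tbx5*. Because the *R26* promoter that drives this Cre is active in all tissues, the excision was not limited to cardiomyocytes or to the heart, and a locus of the list cannot be assigned to a cell type. RNA without ribosomal and polyadenylated RNA was sequenced in a directional library, and the list gives positions, strand, a conservation score and linked genes, but no level per library. Depth, the spread between animals and the size of the change were therefore unknown for every locus here, the cell type markers and *Tbx5* itself could not be checked in the libraries, and no test between genotypes was made. The direction of change was left unassigned, because the sheet name and a column heading of the list point in opposite directions.

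TBX5 is a T-box transcription factor that binds enhancers of genes for atrial conduction, contraction and calcium handling. Active enhancers are transcribed by RNA polymerase II, often from both strands into short and unstable RNAs, whereas a longer transcript from 1 strand can also be a long noncoding RNA, an intron or the continuation of a gene beyond its polyadenylation site. Libraries depleted of polyadenylated RNA retain all of these. The longest of the 264 loci included stretches within introns, beyond the 3′ ends of coding genes and between genes.

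Sequence was available where a locus met an annotated start site or exon. Among RefSeq promoter windows, which run from 250 bases before to 50 bases after a start site, 5 of the 264 loci had a same-strand start within 1 kb of their own 5′ end. The start of *Gm3716* lay at the 5′ end of XLOC_043548 and was the closest. *Gm20559* began 55 to 58 bp upstream of XLOC_046610, *8430426J06Rik* 122 bp upstream of XLOC_019858, *Gm36354* 684 bp upstream of XLOC_045749 and *Gm41047* 856 bp upstream of XLOC_014465. The windows of the 3 closest are printed because they are the annotated promoters that adjoin a long locus. Sequences are 5′ to 3′ on the strand of the locus, on GRCm38.p6 from RefSeq, and capitals mark matches, on either strand, to the motifs searched. These were AGGTGTNA for a T-box site, AGATAA for GATA factors, TNAAGTG for the factor NKX2-5, the 10-letter consensus of MEF2, GGAATG for TEAD factors, and TATAAA for the TATA box.
Gm3716, chr5:64610650-64610949, minus strand: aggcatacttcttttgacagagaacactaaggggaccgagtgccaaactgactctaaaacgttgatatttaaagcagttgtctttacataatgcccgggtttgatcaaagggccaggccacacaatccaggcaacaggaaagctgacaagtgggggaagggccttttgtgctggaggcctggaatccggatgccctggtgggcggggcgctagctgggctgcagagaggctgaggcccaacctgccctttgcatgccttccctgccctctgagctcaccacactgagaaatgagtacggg
Gm20559, chr6:3346092-3346391, minus strand: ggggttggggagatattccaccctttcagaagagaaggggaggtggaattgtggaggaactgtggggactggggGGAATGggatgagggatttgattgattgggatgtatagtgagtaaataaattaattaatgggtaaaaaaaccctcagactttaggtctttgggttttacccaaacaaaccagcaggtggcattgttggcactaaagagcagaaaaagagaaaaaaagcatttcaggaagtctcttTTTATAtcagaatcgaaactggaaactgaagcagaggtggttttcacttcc
8430426J06Rik, chr15:81247922-81248221, minus strand: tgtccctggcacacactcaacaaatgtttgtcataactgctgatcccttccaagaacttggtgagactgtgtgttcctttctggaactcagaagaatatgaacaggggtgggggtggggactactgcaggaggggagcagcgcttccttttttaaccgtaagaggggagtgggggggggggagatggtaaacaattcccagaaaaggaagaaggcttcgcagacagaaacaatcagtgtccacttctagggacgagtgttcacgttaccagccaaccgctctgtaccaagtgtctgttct
The windows of *Gm3716* and *8430426J06Rik* held none of the 6 motifs. The window of *Gm20559* held a TEAD match at bases 75 to 80 and a TATA box match on the opposite strand at bases 250 to 255, counted from the first base of the window, and these did not overlap. Over all 32851 RefSeq windows of 300 bases, the TEAD letters were present in 14.7% and the TATA letters in 13.6%.

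Exons of GENCODE M21 noncoding genes gave sequence inside 32 of the loci, 25598 bases in all, in stretches of 1 to 2695 bases. The T-box letters were found in 2 of the 32, XLOC_005168 between *Sash1* and *Samd5* and XLOC_043548, which was linked to *Tbc1d1*, a regulator of glucose transport. The number of matches expected in this much sequence was not computed, so these are not read as an excess. XLOC_005168 held a single match and XLOC_043548 held 2, and 1 match of each is shown with 100 bases before it. Also shown are part of XLOC_017362, the locus with the highest conservation score, and XLOC_044827. The latter was the 1 locus with a score above 0.5 that overlapped an M21 noncoding gene other than a pseudogene. The M21 genes of XLOC_005168 and XLOC_044827 were of type TEC. These 4 stretches are from GENCODE M21 transcripts on GRCm38, with the same use of capitals.
XLOC_005168, chr10:9070154-9070453, minus strand: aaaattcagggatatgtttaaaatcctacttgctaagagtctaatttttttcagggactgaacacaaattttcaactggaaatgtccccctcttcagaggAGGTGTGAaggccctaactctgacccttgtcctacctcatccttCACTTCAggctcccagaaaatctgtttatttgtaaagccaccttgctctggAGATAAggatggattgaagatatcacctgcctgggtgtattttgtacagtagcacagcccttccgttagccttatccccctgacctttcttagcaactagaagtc
XLOC_043548, chr5:64595013-64595312, minus strand: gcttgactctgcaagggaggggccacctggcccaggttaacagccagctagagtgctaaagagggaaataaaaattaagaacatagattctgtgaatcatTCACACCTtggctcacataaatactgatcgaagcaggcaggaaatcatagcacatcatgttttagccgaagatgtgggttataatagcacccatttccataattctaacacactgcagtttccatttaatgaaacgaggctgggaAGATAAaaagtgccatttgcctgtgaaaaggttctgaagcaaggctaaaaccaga
XLOC_017362, chr14:18544365-18544664, minus strand: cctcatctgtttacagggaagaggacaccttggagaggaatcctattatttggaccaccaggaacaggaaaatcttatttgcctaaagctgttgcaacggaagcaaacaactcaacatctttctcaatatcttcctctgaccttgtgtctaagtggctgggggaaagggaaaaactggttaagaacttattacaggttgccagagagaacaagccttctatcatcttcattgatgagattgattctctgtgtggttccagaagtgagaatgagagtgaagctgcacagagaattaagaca
XLOC_044827, chr6:15812776-15813058, plus strand: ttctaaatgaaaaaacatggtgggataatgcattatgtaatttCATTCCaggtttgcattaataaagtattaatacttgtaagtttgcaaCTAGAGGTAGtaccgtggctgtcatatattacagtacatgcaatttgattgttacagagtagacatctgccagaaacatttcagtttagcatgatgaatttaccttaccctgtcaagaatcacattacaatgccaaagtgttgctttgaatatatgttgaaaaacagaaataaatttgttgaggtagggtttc
XLOC_005168 held a T-box match at bases 101 to 108 of the stretch, an NKX2-5 match on the opposite strand at 145 to 151 and a GATA match at 196 to 201. In the stretch shown of XLOC_043548 the T-box match was on the opposite strand at bases 101 to 108, with a GATA match at 246 to 251. XLOC_044827 held a TEAD match on the opposite strand at bases 44 to 49 and a MEF2 match at 91 to 100, and XLOC_017362 held none. No matches overlapped in these stretches. The stretches differed in length and were not compared with promoters, and a match is a match of letters, not a site bound by a factor.

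The loci ranged in length from 505 to 39867 bp, with a median of 2296.5 bp (95% interval 1920 to 2550 bp). Length counts every base between the outer ends, introns included, and was part of the rule, so it is given as a description. There were 28 loci of 10 kb or more and 30 under 1000 bp. Although they were 17.7% of the list, the 264 loci made up 1166.53 of 3089.1 kb of listed length (37.8%). The longest was XLOC_005013 (chr10:5259174-5299040, minus strand), 39867 bp inside *Syne1*, which encodes the nuclear envelope protein nesprin-1, and on the strand of that gene. A pair of identifiers, XLOC_010925 and XLOC_010926, shared the single interval chr12:9227229-9262707 of 35479 bp between *Ttc32* and *Osr1*, so that 263 intervals were distinct. The remaining loci among the 10 longest were XLOC_005320 (32542 bp), XLOC_005319 (24417 bp), XLOC_005311 (23672 bp), XLOC_005220 (23512 bp) and XLOC_005321 (19690 bp) between *Sash1* and *Samd5*, XLOC_010918 (21767 bp) between *Ttc32* and *Osr1*, and XLOC_046610 (20486 bp) downstream of *Samd9l*. The 3 loci just inside the limit were XLOC_012254 (505 bp), XLOC_019257 (507 bp) and XLOC_017362 (529 bp). Just outside it were XLOC_014373 (499 bp), XLOC_036907 (497 bp) and XLOC_036661 (494 bp), the last of them 1.12 kb upstream of *Casq2*, which encodes the calcium-binding protein calsequestrin.

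**Figure D1:**
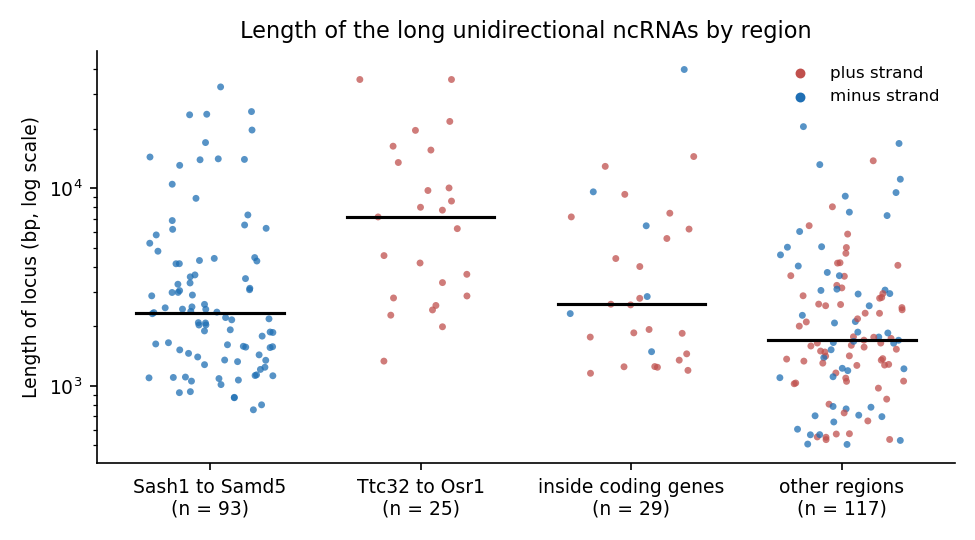
Length in bp (log axis) of each of the 264 loci by region, colored by strand, with the median of each region as a black line. Medians were 2346 bp between *Sash1* and *Samd5* (n = 93, all minus strand), 7152 bp between *Ttc32* and *Osr1* or just beyond *Osr1* (n = 25, all plus strand), 2587 bp inside coding genes (n = 29) and 1700 bp elsewhere (n = 117).

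Members were found on 19 autosomes and not on the X chromosome, which held 43 listed loci. Chromosome 10 carried 99, chromosome 12 carried 30, chromosomes 5 and 13 carried 22 each, and chromosome 6 carried 15. The gap between *Sash1* and *Samd5* alone contributed 93 of the 264 (35.2%), all on the minus strand. It therefore weighed on shares over the whole set, which are given with and without it, while values of the other classes include their loci of this gap unless stated otherwise. The minus strand held 56.8% of all members (95% interval 50.8% to 62.7%) and 33.3% (26.7% to 40.7%) without that gap. It held 49.2% of short and 45.1% of bidirectional loci.

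Most long loci lay near another listed locus of the same strand. A listed locus of the same strand lay within 10 kb of 80.3% of them (95% interval 75.1% to 84.7%), compared with 34.2% of short, 45.8% of bidirectional and 34.2% of annotated loci. Without the gap between *Sash1* and *Samd5* the share was 69.6%. With 1 value per cluster of long loci up to 10 kb apart it was 47.5%, where a cluster counted if any of its loci did. The 33 clusters of 2 or more loci were each on 1 strand, so they counted by construction. The other classes were not reduced to clusters. Within 1 kb the shares were 63.3% of long loci, or 49.7% without the gap, against 15.6% of short and 29.0% of bidirectional loci. The intervals cover counting error only, and loci of a cluster are not independent.

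Grouped at gaps of up to 10 kb, the 264 loci formed 99 clusters, of which 66 were single loci. All 33 clusters of 2 or more loci were on 1 strand. The rule had left out loci marked for transcription from both strands, so this count is partly set by the choice of loci. The 11 clusters of 4 or more held 146 loci (55.3%). Between the 164 same-strand neighbours up to 10 kb apart, the median gap was 264 bp (quartiles 89 and 1382 bp), the smallest was 49 bp, and 74 gaps (45.1%) were under 200 bp. Without *Sash1* to *Samd5* there were 76 such neighbours, with a median gap of 341 bp and 34 gaps (44.7%) under 200 bp. Whether loci with such small gaps belong to a single transcript was not tested.

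The clusters with most loci lay in gaps between coding genes. Those between *Sash1* and *Samd5* held 46, 29, 9 and 7 loci, which covered 82.0%, 77.1%, 92.6% and 53.3% of their spans. The cluster of 9 (chr10:9493702-9615287) started 7.649 kb past the 3′ end of *Samd5*. On chromosome 12, 23 plus-strand loci between *Ttc32* and *Osr1* covered 91.5% of chr12:9089724-9315354, on the strand of both genes. *Osr1* encodes a transcription factor of atrial septum and kidney development. The nearest end of this cluster lay 254.762 kb upstream of *Osr1*, and a separate 2550 bp locus, XLOC_011031, lay 6.303 kb past the 3′ end of the gene.

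Some smaller intergenic clusters began close to the 3′ end of a coding gene and continued on its strand. Between *Slc22a23* and *Pxdc1*, 5 minus-strand loci (chr13:34586355-34625215) covered 36.937 of 38.861 kb and began 2.619 kb past *Pxdc1*. On chromosome 6, 7 plus-strand loci (chr6:133113481-133141903) began 2.582 kb past *Smim10l1* and covered 47.5% of their span. *F13a1*, which encodes the A subunit of coagulation factor XIII, had 3 loci at 3.594, 5.040 and 7.649 kb past its 3′ end. At *Nrg1*, which encodes the growth factor neuregulin 1, 3 loci of 3746, 2273 and 1219 bp followed each other at 7.539, 11.347 and 13.680 kb, separated by gaps of 62 and 60 bp, and covered 98.3% of 7.360 kb.

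Other clusters were sparser or faced away from the nearest gene. On chromosome 13, 4 loci (chr13:42402000-42424912) between *Edn1*, which encodes endothelin-1, and *Phactr1* covered 15.4% of their span, and 12 short listed loci lay among them. On chromosome 5, 4 minus-strand loci (chr5:91051292-91072036) lay between *Epgn* and *Ereg*, genes of the EGF family of ligands, and both genes are on the plus strand. These loci covered 36.6% of their span, and the first of them in the order of transcription began 2.586 kb upstream of *Ereg*.

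**Figure D2:**
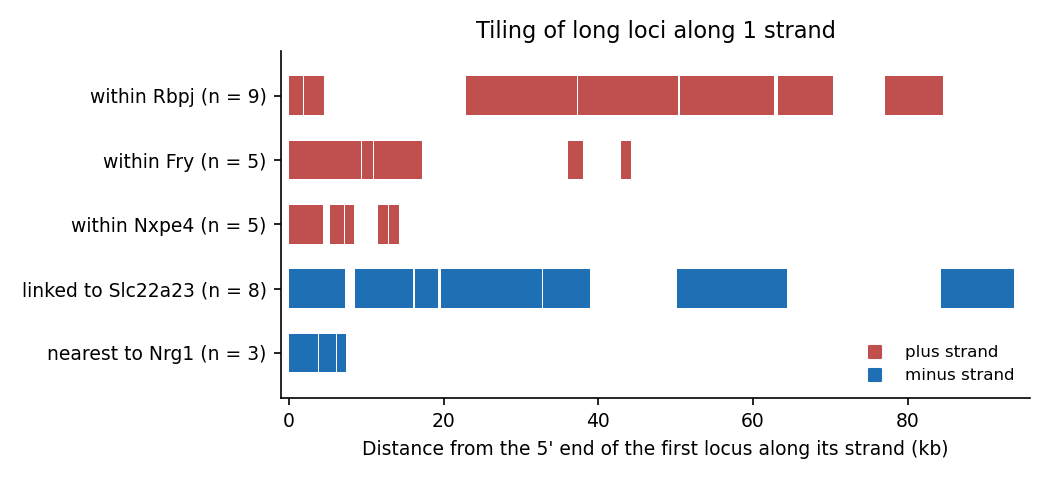
Position of loci in 5 regions, in kb from the 5′ end of the first locus along its strand, with each bar drawn to scale and colored by strand. The 9 loci within *Rbpj* span 84.55 kb, the 5 within *Fry* 44.201 kb, the 5 within *Nxpe4* 14.179 kb, the 8 linked to *Slc22a23* 93.78 kb and the 3 nearest to *Nrg1* 7.36 kb, and most neighbouring bars are separated by narrow gaps.

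Most members lay outside coding genes (235 of 264). Of the 29 that overlapped one, 28 were on its sense strand. A total of 23 lay within introns, all 23 in sense (95% interval 85.7% to 100%), where 87.2% of 39 short and 94.1% of 34 bidirectional intronic loci were in sense. Another 5 overlapped a coding exon in sense, in *Enah*, *Syne1*, *Rbpj*, *Mad2l1* and *Nxpe4*, and XLOC_018793 overlapped an exon of *C1qtnf6* in antisense. By the paper, counts of coding genes were left out before the false discovery rate was worked out. Sense loci inside a gene cannot be told apart from its unspliced RNA in these files.

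*Rbpj*, which encodes the DNA-binding effector of Notch signalling, held 9 members. Their lengths were 1853, 2587, 14459, 12895, 5564, 2567, 4013, 7155 and 7472 bp in the order of transcription. The last 7 formed a cluster (chr5:53488896-53550624) that covered 87.7% of its span, with gaps between 52 and 6691 bp. None of the 9 had a linked gene. *Fry*, whose protein binds microtubules, held 5, of 9306, 1451, 6208, 1843 and 1251 bp. The first 3 covered 99.0% of chr5:150148192-150165324, with gaps of 101 and 67 bp, and all 5 named *Fry* as linked gene. *Nxpe4* held 5 loci of 1197 to 4406 bp over 69.5% of chr9:48162087-48176265. *Rin2* and *A630089N07Rik* held 2 each, and *Insr*, the insulin receptor gene, held a single locus of 9583 bp.

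Outside coding genes, the nearest coding gene ended before the locus, so that the locus lay downstream, in 149 cases, of which 128 were in sense. Without *Sash1* to *Samd5* 89 of 110 downstream loci were in sense. Upstream loci numbered 86, of which 62 were in sense, but 8 of 32 without that gap. Within 10 kb, 73.5% of 34 downstream loci were in sense (95% interval 56.9% to 85.4%), compared with 84.2% of 228 short loci (78.9% to 88.4%). Upstream within 10 kb, 1 of 6 was in sense (16.7%, 3.01% to 56.4%), compared with 54.2% of 72 short loci. The intervals for long and short loci overlapped on both sides.

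The nearest genes of downstream loci included members of the gene lists for heart and connective tissue and genes of neither. XLOC_000279 (chr1:45353555-45355558) lay 3.849 kb past *Col3a1*, which encodes a fibrillar collagen, in sense. XLOC_001176 (chr1:135856691-135858293) lay 4.431 kb past *Tnnt2*, which encodes cardiac troponin T, in sense. XLOC_053389 (chr8:68910613-68913154) lay 3.165 kb past *Lpl*, the gene of lipoprotein lipase, also in sense. The shortest distance was that of XLOC_058257, 0.777 kb past *Pafah1b2* in sense. In antisense, loci lay 1.485 and 4.677 kb downstream of the cell cycle inhibitor gene *Cdkn2b*, 3.610 to 6.560 kb downstream of *Parva* (3 loci), and 12.822 kb downstream of *Tgfb2*, which encodes a TGF-beta ligand. XLOC_053308, over *5033428I22Rik*, lay 29.147 kb downstream of *Hand2*, a transcription factor gene of heart development, in sense.

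**Figure D3:**
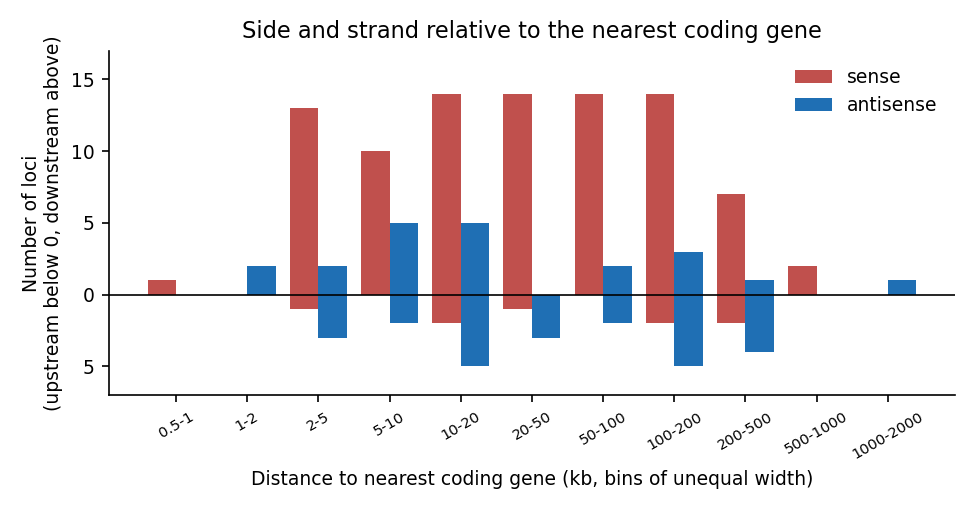
Number of loci by distance in kb to the nearest coding gene, for the 142 loci outside coding genes and outside the gap between *Sash1* and *Samd5*, with downstream loci above 0 and upstream loci below, colored by strand relative to the gene. Downstream, sense loci number 13 at 2 to 5 kb and 14 in each bin from 10 to 200 kb, and upstream no bin holds more than 2 sense loci.

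From the nearest start site of a coding gene, the 264 loci lay at a median of 112.1 kb (95% interval 95.5 to 128.9 kb). It was 44.6 kb (32.8 to 64.5 kb) without *Sash1* to *Samd5*, and 42.0 kb for short and 25.8 kb for bidirectional loci. Outside that gap the interval of the long loci thus held the median of the short loci and lay above that of the bidirectional loci.

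The link between a long locus and a *Tbx5*-dependent coding gene was examined next. In the deposited list a linked gene is a *Tbx5*-dependent coding gene that the authors assigned to the locus. Linked genes were read only from the column whose heading names a direction of change. A locus without a linked gene can therefore still lie near a *Tbx5*-dependent coding gene, and whether it did was not tested. The paper narrowed its ncRNAs to those within a set distance of *Tbx5*-dependent coding genes that changed in the same direction. The shares below therefore count entries in that column, not loci near a *Tbx5*-dependent gene. Of the 264 loci, 38 (14.4%, 95% interval 10.7% to 19.1%) had one, compared with 27.4% of short (24.3% to 30.8%), 23.6% of bidirectional and 38.1% of annotated loci. None of the 93 loci between *Sash1* and *Samd5* had a linked gene, and without them the share was 22.2% (16.6% to 29.0%), an interval that overlapped those of short and bidirectional loci. A linked gene within 100 kb was found for 4.55% of all members, or 7.02% (4.06% to 11.9%) without that gap, compared with 17.2% (14.6% to 20.1%) of short and 14.8% (11.2% to 19.3%) of bidirectional loci. Only 12 long loci made up this share, 5 of them inside *Fry*, and no value per cluster was computed for it.

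By the median, linked long loci lay farther from their genes than linked short or bidirectional loci. The median distance was 176.2 kb (111.9 to 219.3 kb), against 74.7 kb (46.7 to 89.7 kb) for short and 60.0 kb (48.3 to 93.5 kb) for bidirectional loci. Of the 38 linked long loci, 8 lay in the same run at 186.254 to 272.768 kb from *Slc22a23*, and 5 lay inside *Fry*. Such loci are not independent, and no median by gene or cluster was computed. Whether the classes differ in this distance was not tested. Among loci with 2 or 3 listed neighbour genes, outside the gap, 26.9% of 108 long loci had a linked gene (19.4% to 35.9%), compared with 21.6% of 394 short loci outside it (17.8% to 25.9%). With 4 or 5 neighbour genes the shares were 23.1% of 26 long loci (11.03% to 42.05%) and 27.5% of 138 short loci (20.8% to 35.5%). With 6 or more neighbour genes the shares were 8.57% of 35 long loci (2.96% to 22.4%) and 43.2% of 176 short loci (36.1% to 50.6%). The intervals of long and short loci overlapped in the first and second of these groups and not in the last, which rests on 3 linked loci among 35 and includes the cluster of 7 past *Smim10l1*. The neighbour genes were those listed by the authors for each locus.

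**Figure D4:**
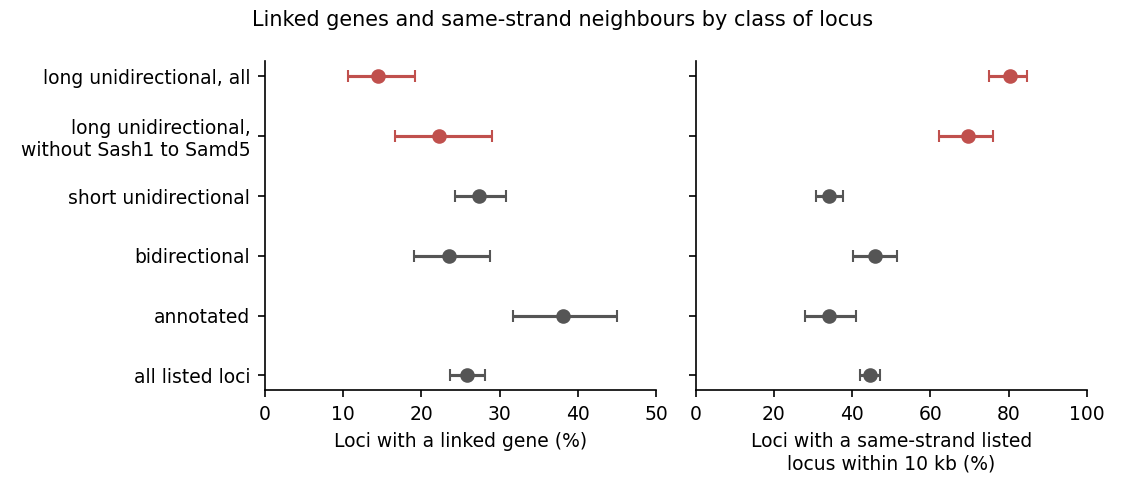
Percent of loci with a linked gene (left) and with a same-strand listed locus within 10 kb (right) in each class of the list, as points with 95% Wilson intervals. Long unidirectional loci sit at 14.4% and 80.3%, or 22.2% and 69.6% without the gap between *Sash1* and *Samd5*, and short unidirectional loci at 27.4% and 34.2%.

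The 38 loci made 44 pairs with 26 genes, 19 of which had a single long locus. In 29 pairs (65.9%) the locus was on the strand of its gene. It lay inside the gene in 5, upstream in 24 and downstream in 15. The linked gene was the closest coding gene in 13 pairs (29.5%), 14 pairs were within 100 kb, and 3 were more than 500 kb apart.

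The gene with most long loci was *Slc22a23*, which encodes a member of the SLC22 transporter family. All 8 of its listed loci were long, with lengths from 2913 to 13160 bp, and all lay upstream and in sense, at 186.254 to 272.768 kb. Their nearest coding gene was *Pxdc1*, downstream of which they lay. *Fry* followed with all 5 of its listed loci, inside the gene. *Nrg2*, which encodes a neuregulin growth factor, had 3 of its 6 listed loci among the long ones, of 2487, 1770 and 2799 bp at 111.931, 115.767 and 118.324 kb, all upstream and in antisense. *Srek1*, which encodes a splicing regulator, had 3 of 4, in antisense at 215.998, 228.645 and 241.031 kb downstream.

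Apart from *Fry*, the shortest distance was 1.212 kb, between XLOC_018884 (535 bp) and *Cyp2d22*, a cytochrome P450 gene, and the locus lay downstream in antisense. The same locus was linked to *Sept3* at 74.207 kb. XLOC_024058 lay 11.274 kb from *Gm4944*, named *Zfp994* in GENCODE M21, and XLOC_045477 lay 47.173 kb from *Tigd2* and 86.284 kb from *Gprin3*. XLOC_056935, a locus of 13761 bp, lay 55.300 kb downstream of *Vps13c* and was also linked to the nuclear receptor gene *Rora* at 589.088 kb. The remaining pairs within 100 kb were those of *Efcab4b* (63.424 kb), *Rdh14* (68.197 kb) and *Zfp958* (77.596 kb).

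Some of the other linked genes lay between 182.439 and 707.833 kb away. *Cacna1s*, which encodes the skeletal muscle L-type calcium channel subunit, was linked to XLOC_001176 at 194.457 kb, although the nearest gene to that locus was *Tnnt2*. *Smad3*, which encodes a transducer of TGF-beta signalling, was linked to XLOC_058519 at 182.439 kb. *Tbc1d1* was linked to XLOC_043548 (16838 bp), the locus at the start of *Gm3716*, at 242.376 kb. *Kcnj2*, which encodes the inward rectifier potassium channel Kir2.1, was linked to 2 long loci among its 11 listed loci, XLOC_008505 (570 bp) at 692.306 kb and XLOC_008517 (534 bp) at 707.833 kb. Promoter windows were found for 20 of the 26 linked genes, 23 windows in all. None held the T-box letters (0 of 23, Wilson upper limit 14.3%), which were present in 3.03% of all windows. TEAD letters were found in 3 of the 23, those of *Cacna1s*, *Krr1* and *4930529M08Rik*, against 14.7% of all windows.

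Genes of cardiac and noncardiac cells were then looked up among the 350 genes that the list names beside long loci, of which 348 matched GENCODE M21. The share of all coding genes named beside long loci was not computed, so a low count or none is not read as a lack. Of 31 calcium handling genes none was a neighbour of a long locus, whereas 10 were neighbours of some listed locus. Of 27 genes of ion channels and conduction, *Kcnj2* was the only neighbour of a long locus, against 3 for the whole list. Of 37 cardiac transcription factor genes 3 were neighbours, *Hand2*, *Osr1* and *Tead1*, against 12 for the whole list. *Tead1* had 3 antisense loci at 79.217 to 82.339 kb upstream. Sarcomere genes gave 2 of 33 (*Tnnt2* and *Tnni1*, by the same locus) against 6, energy metabolism genes 1 of 32 (*Lpl*) against 11, and natriuretic and stress genes 3 of 16 (*Edn1*, *Nrg1* and *Nrg2*) against 7 for the whole list. The 4 *Edn1* loci lay 94.010 to 115.867 kb downstream in sense.

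Genes of other cell types were present as well. Fibroblast and extracellular matrix genes gave 5 of 43, namely *Col3a1*, *Col5a2*, *Col12a1*, *Inhba* and *Tgfb2*, against 16 for the whole list. Of these *Inhba* was 179.126 kb away and *Col12a1* 87.064 kb. *Emcn*, an endothelial marker, was 1 of 15 endothelial genes and had XLOC_035197 at 19.227 kb downstream, and *Tagln* was 1 of 9 smooth muscle genes, against 3 for the whole list in both cases. None of 17 immune or 12 neuronal and Schwann cell genes was a neighbour, against 7 and 0 for the whole list. Of all genes on these lists, *Kcnj2* and *Nrg2* were linked to a long locus. The number of neighbour genes differs between classes of loci, so these counts describe the long loci and do not compare them with the whole list.

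The annotation column of the list and GENCODE M21 did not name the same loci as unannotated. Of the 264 members, 174 (65.9%) overlapped no M21 gene of any kind, and 66 overlapped an M21 noncoding gene, 38 of them on the same strand. Exons of pseudogenes were overlapped by 19 members, 14 on the same strand. The share over a noncoding gene on the same strand was 14.4% (10.7% to 19.1%), compared with 8.54% (6.72% to 10.8%) of short and 14.1% of bidirectional loci. The part of length in this difference was not tested.

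The stretches shared with same-strand pseudogenes resembled coding transcripts. All 14 aligned over at least 80% of their length to a coding transcript of GENCODE M21, at 87.4% to 99.0% identity with a median of 96.5%, and 9 were at or above 95%. *Gm3375* matched *Psmb5* at 99.0%, *Gm5487* matched *Mcm7* at 98.0%, *Tubb2a-ps2* matched *Tubb2b* at 97.2%, and *Gm4939*, the stretch printed for XLOC_017362, matched *Vps4b* at 96.8%. Of the 17 other exon stretches 1 aligned over that length. At 50 bases, the read length before trimming, 0% to 56.3% of the words of a pseudogene stretch occurred unchanged in a coding transcript (median 18.7%), and 15 of the 17 other stretches had none. The stretch with none was that of *Gm48758*, 223 bp within the 32542 bp of XLOC_005320. Reads from the other 13 stretches could be shared with coding genes. Only unchanged words of 50 bases were counted, so sharing of trimmed or inexact reads, also at *Gm48758*, was not covered. How the reads had been divided was not tested.

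The conservation score of a locus, the mean phastCons over its scored bases, was low for most long loci. The score runs from 0 to 1 and estimates for each base the probability of belonging to a conserved element. Of the 264 members 253 had a score, with a median of 0.0960 (95% interval 0.0883 to 0.107). The median was 0.0486 (0.0416 to 0.0559) for short, 0.0755 (0.0611 to 0.0922) for bidirectional and 0.116 for annotated loci. Leaving out loci over a pseudogene exon gave 0.0932 (0.0845 to 0.102) for long, 0.0464 for short, 0.0724 for bidirectional and 0.0783 for annotated loci. The quartiles of the long loci were 0.0603 and 0.148, and the part of length in these differences was not tested.

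Scores above 0.5 were rare, and most belonged to pseudogenes. There were 11 such loci, of which 8 overlapped a pseudogene exon, whereas 11 of the 242 loci at or below 0.5 did. The highest were XLOC_017362 (0.780, *Gm4939*), XLOC_013313 (0.779, *Gm48455*), XLOC_035917 (0.748, *Gm7733*), XLOC_003923 (0.716, *Gm232*) and XLOC_034241 (0.709, *Gm8276*). The other 3 of these 8 were XLOC_012261 (0.665, *Tubb2a-ps2*), XLOC_024058 (0.567, *AC154707.2*) and XLOC_018099 (0.508, *Gm7004*). The 3 without a pseudogene were XLOC_008517 (0.700), 1 of the pair linked to *Kcnj2*, XLOC_044827 (0.594), the printed stretch of *Gm43924* located 10.607 kb past *Mdfic* in sense, and XLOC_056834 (0.587), 9.225 kb past *Coro2b* in antisense. The second *Kcnj2* locus, XLOC_008505, had a score of 0.0943.

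**Figure D5:**
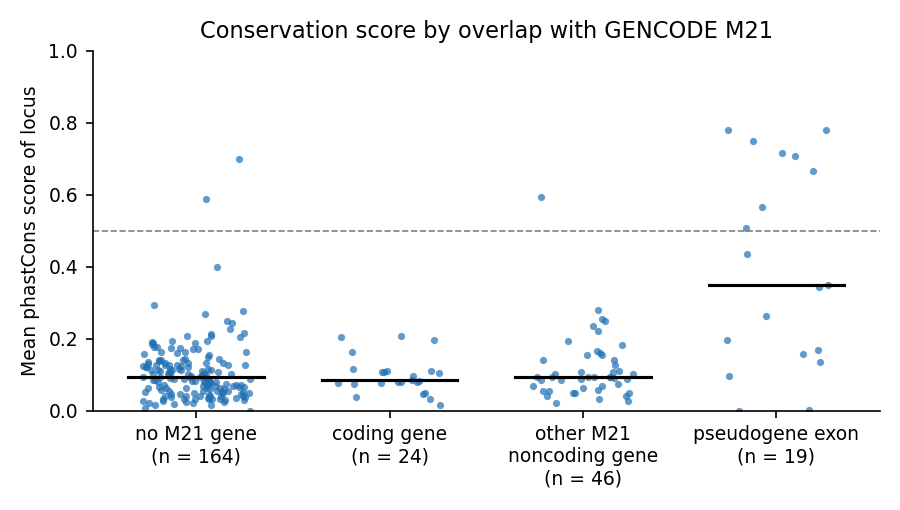
Mean phastCons score of each of the 253 scored loci by overlap with GENCODE M21, with medians as black lines and a dashed line at 0.5. Medians were 0.0933 over no M21 gene (n = 164), 0.0845 in coding genes (n = 24), 0.0939 over other noncoding genes (n = 46) and 0.350 over pseudogene exons (n = 19), where 8 of the 11 loci above 0.5 lie.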

How the data were processed

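Left atrial RNA from 3 control and 4 *Tbx5* knockout libraries was depleted of ribosomal and polyadenylated RNA and sequenced as directional 50-base single-end reads. The authors aligned reads with TopHat2 (versions 2.0.13 and 2.0.10 in the submitters' processing notes), assembled transcripts with Cufflinks, counted with featureCounts, tested with DESeq, and kept ncRNAs past their limits and away from coding start sites. The paper then narrowed its ncRNAs to those within a set distance of *Tbx5*-dependent coding genes that changed in the same direction. The 2 deposited tables were identical and were used once. The deposited phastCons value is a fraction from 0 to 1, averaged by the authors over scored bases of mm9. Positions are 1-based on mm10.

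Loci were compared with GENCODE M21 (GRCm38) by closest edges, and coding similarity was computed with BLASTN 2.17.0. Intervals are 95% Wilson (shares) or order-statistic (medians) and cover counting error only. No tests over loci were run. The members and gene lists were chosen with earlier results of these data known. Loci named are the longest, those nearest the length limit, the highest in phastCons, larger clusters, closest linked pairs and list genes, while other loci were chosen after their values were seen. Steps were tested on simulated data.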

Additional observations from a re-analysis of the deposited data

How the results depend on the processing

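Of 40 alternative values for 9 results, 26 stayed close to the reported value and 14 moved. Without the gap between *Sash1* and *Samd5*, the minus-strand share was 33.3%, the share with a same-strand locus within 10 kb 69.6%, the linked share 22.2% and the median distance to a coding start site 44.6 kb. With 1 value per cluster these were 44.4%, 47.5%, 26.3% and 49.0 kb, and the median length was 1761 bp. A cluster counted towards a share if any of its loci did, and gave the median of its loci for distance and length. The same-strand share was 63.3% within 1 kb, 86.4% within 50 kb and 75% with long loci alone as neighbours. Clusters numbered 150 at a gap of 1 kb, and 174 loci were left without those over any M21 gene. Leaving out loci over M21 genes or pseudogene exons, counting distinct intervals, long neighbours alone, and the 50 kb distance without that gap were 6 alternatives chosen after seeing the data. The downstream sense share stayed between 72.7% and 79.4%, and the median phastCons score between 0.0932 and 0.0951 under its alternatives. The 3 planned results on motifs in the first bases of each locus, GC content and repeats were not run, since they need genome sequence, which was not used here. No paired analysis was possible because the list holds no value per library, and for the same reason no library could be left out. Depth and replicate error of each locus are unknown.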
